A study of Mus musculus with 6 samples.

Results

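Mitochondrial biogenesis regulators were followed in the right atrium (RA) of mice under volume overload (VO). They were 10 genes chosen by symbol, out of 54093 genes in the table: the coactivators Ppargc1a and Ppargc1b, the nuclear receptors Esrra and Esrrg, the transcription factors Nrf1 and Gabpa, and Tfam, Polrmt, Tfb2m and Polg, whose proteins copy and transcribe mitochondrial DNA. All 10 were among the 12627 genes that passed the filter on low values. Wild-type C57BL/6 mice of either sex underwent a sham operation or an aortocaval fistula at postnatal day 7 (P7), in which a needle passed from the abdominal aorta into the inferior vena cava joins the vessels and overloads the right heart. RA myocardium was taken at P21 and its RNA sequenced, in 3 sham and 3 VO libraries. The labels do not say whether libraries of a group came from separate mice or from pools, so the p-values measure the spread between these libraries, which may be technical.

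In the textbook pathway, the coactivators PGC-1α and PGC-1β bind transcription factors rather than DNA. Through the estrogen-related receptors, nuclear respiratory factor 1 (NRF1) and GA-binding protein (GABP, also called NRF-2), they raise nuclear genes for mitochondrial enzymes and for the proteins that maintain mitochondrial DNA. The heart depends on this program after birth, when its muscle turns from glucose toward fatty acids and mitochondria fill the cell.

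Short promoter stretches are shown because NRF1 and GABPA, both members, are also classed as regulators of other members. RefSeq promoter windows (GRCm38.p6, 250 bases before to 50 bases after the transcription start) were present for 9 of the 10 members, all but Ppargc1b. The part GCGCATGC of the NRF1 element (reverse GCATGCGC, both strands searched) was found in Esrra, Tfb2m and Polrmt. It was in 3.05% of all 27025 genes with such a window, and in 2.71% of their 32851 promoters. The ETS core CCGGAAG (reverse CTTCCGG), bound by GABPA and by other ETS factors, was found in Gabpa, Tfam, Polrmt and Polg. It was in 9.93% of all genes (8.86% of promoters). The element TCAAGGTCA of estrogen-related receptors was in no window of the 9 members and in 0.466% of all genes (0.423% of promoters). The shorter AAGGTCA, which lies within it, was also in none and in 5.38% of all genes (4.72% of promoters). Windows of the members with a match held 52.0% (Polrmt) to 70.3% (Tfam) G and C, beside a median of 52.7% over all promoters. These matches describe letters only and were not tested as binding sites. The lines below run 5′ to 3′ on the strand of the gene, with the motif in capitals, NRF1 in the first 3 and the ETS core in the last 2.
Esrra, chr19:6921809-6921882, minus strand: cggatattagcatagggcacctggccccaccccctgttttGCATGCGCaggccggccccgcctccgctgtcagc
Tfb2m, chr1:179546245-179546274, minus strand: ctaggtcgttcGCATGCGCcattcgtaatg
Polrmt, chr10:79746667-79746754, minus strand: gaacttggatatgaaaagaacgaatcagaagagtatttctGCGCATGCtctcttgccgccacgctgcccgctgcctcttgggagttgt
Tfam, chr10:71238045-71238131, minus strand: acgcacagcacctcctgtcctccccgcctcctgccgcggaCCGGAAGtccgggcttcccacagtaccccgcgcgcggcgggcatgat
Polg, chr7:79466274-79466351, minus strand: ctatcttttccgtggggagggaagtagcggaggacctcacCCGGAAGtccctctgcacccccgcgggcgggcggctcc
The first motif base stood at -34 from the start site in Esrra, +13 in Tfb2m, -133 in Polrmt, -47 in Tfam and -38 in Polg.

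Levels are given in FPKM, fragments per kilobase of gene scaled to sequencing depth, as deposited. From 15963082 to 17237903 fragments fell on genes per library, and a member rested on 182 to 2855 fragments per library. Some libraries stood apart. VO 3 carried fat markers: Ucp1, the uncoupling protein of brown fat, was at 254 FPKM there and at 0 in the other 5 libraries, Adipoq was at 48.7 against 0.489 or less, and the 5 white fat markers summed to 129 against 0 to 1.06. VO 1 had a summed macrophage marker level of 865, against 236 to 334 in the others, and a summed level of 9 atrial cardiomyocyte markers of 6664, against 9939 to 20124. In bulk tissue, fewer cells of a type and less RNA per cell cannot be told apart. The sum of cardiomyocyte markers follows its highest genes, with Myl7 at 8501 and Nppa at 5513 FPKM in sham 1. These, Myl4, Sln and Tnnt2 were highest in sham 1, whereas Ryr2, Myh6, Actn2 and Ttn were lower there than in the other sham libraries. Ryr2 was at 46.8 FPKM in sham 1 and 46.1 in VO 1. Sham 1 and VO 1 also leaned opposite ways with gene length: genes under 2000 bases had a median centred log2 level of 0.27 in sham 1 and -0.20 in VO 1, against -0.04 to 0.01 in the other 4. The part of these differences in the results, and of the length lean in the marker sum, was not tested. Values without these libraries stand beside the results they move most.

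No member passed an adjusted p-value under 0.05 in limma, where 1 gene of 12627 did (0.00792%). At an unadjusted p-value under 0.05, 1 member, Esrra, was called, and 12% of all tested genes were. It was on the lower side, as were 8.08% of genes, and none was called on the higher side, where 3.89% of genes were. Another limma fit, voom on the fragment numbers recovered from the FPKM, also called Esrra and no other member before adjustment, and none after it. Esrra was not called before adjustment with TPM (limma, unadjusted p = 0.0636, adjusted p = 0.397) or quantile normalization (unadjusted p = 0.0693, adjusted p = 0.470). Nor was it called with scaling by fragment totals (limma, unadjusted p = 0.0565, adjusted p = 0.400) or no variance trend (unadjusted p = 0.0573, adjusted p = 0.446). Of the 10 members, 8 had a log2 fold change (VO minus sham) below 0, as did 51.5% of all genes, but with values rescaled so that every library had the same sum (TPM) only 3 did. The median over the members was -0.09, beside -0.01 over all tested genes. With TPM it was 0.05, beside 0.13 over all genes, so that relative to all genes the members sat at -0.08 in both scales. The calls of all genes split into 1020 lower and 491 higher in VO, and into 486 lower and 1085 higher with TPM.

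**Figure D1:**
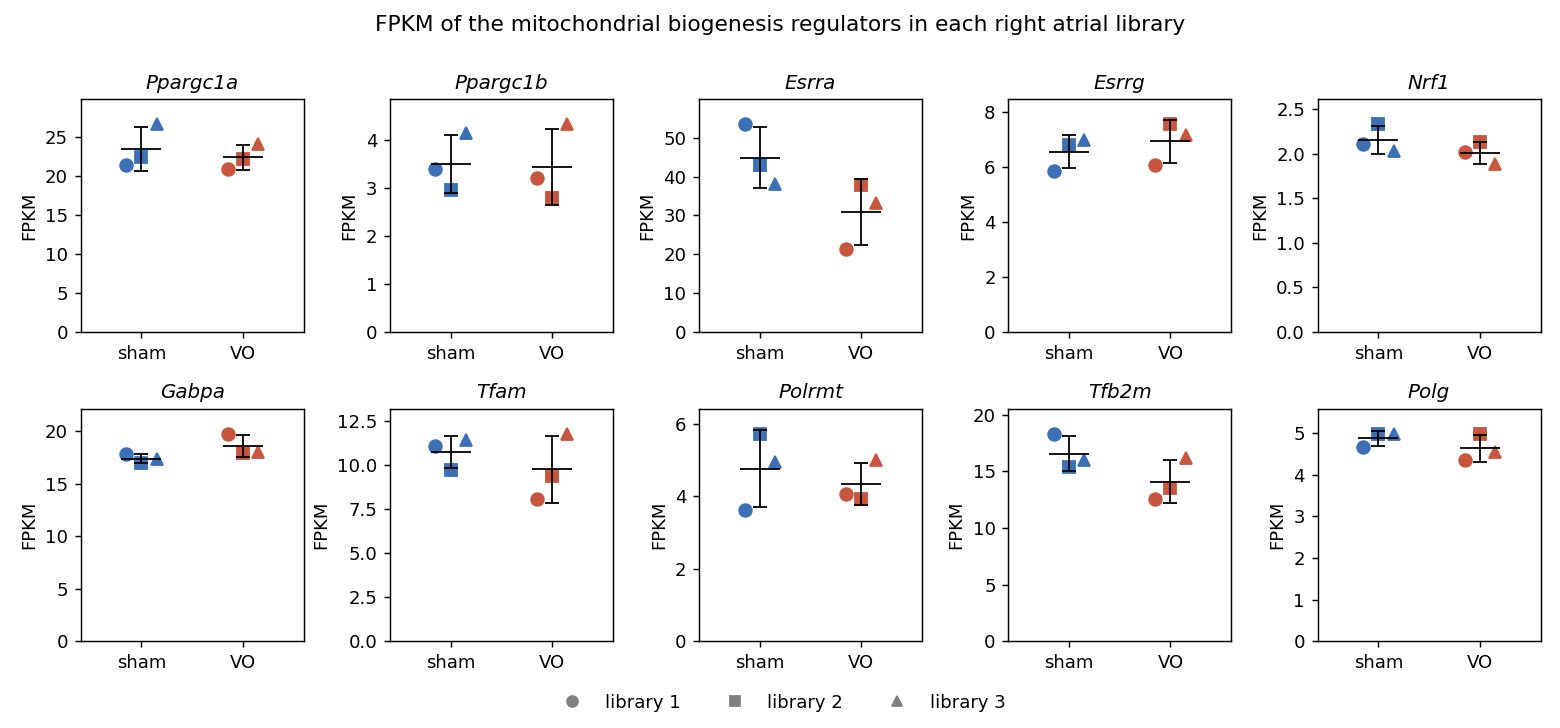
FPKM of each of the 10 members in the 3 sham and 3 VO libraries, 1 panel per gene with its own linear axis from 0; points are libraries, bars are group means with SD. Only Esrra, lower in VO, and Gabpa, higher in VO, show groups that do not overlap.

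The coactivators read alike in both groups. Ppargc1a (ENSMUSG00000029167, GRCm38 chromosome 5, 51454250 to 51567726) encodes PGC-1α, the coactivator that cold, fasting and exercise induce. Its level was 21.3, 22.4 and 26.6 FPKM in sham 1 to 3 and 20.9, 22.1 and 24.1 in VO 1 to 3. The groups overlapped, with sham 3 above all VO libraries, and had means of 23.5 ± 2.78 and 22.4 ± 1.62 (SD, n = 3 each). The log2 fold change was -0.06, with a 95% interval of -0.35 to 0.22 (limma, adjusted p = 0.821), and it turned to 0.08 with TPM. Its relative Ppargc1b (ENSMUSG00000033871, chromosome 18, 61298136 to 61400431) was at 3.40, 2.97 and 4.16 FPKM in sham and 3.22, 2.80 and 4.33 in VO. Replicate 3 was the highest of each group, and the groups overlapped. The log2 fold change of Ppargc1b was -0.03, between -0.50 and 0.44 (limma, adjusted p = 0.951), and 0.10 with TPM. Ppargc1a exceeded Ppargc1b per length 5.58- to 7.91-fold in the 6 libraries. The log2 of this ratio differed between groups by -0.03 (exact permutation test, two-sided, p = 1, the first of 5 member pairs so compared).

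Of the estrogen-related receptors among the members, Esrra read lower in VO and Esrrg did not. Esrrb, a relative outside the members, was at 2.16, 2.36 and 2.27 FPKM in sham and 0.984, 2.30 and 1.64 in VO. Its groups overlapped, with a log2 fold change of -0.51 (limma, adjusted p = 0.466), and -0.21 without VO 1. Esrra (ENSMUSG00000024955, chromosome 19, 6910977 to 6921813) encodes ERRα, an orphan receptor through which PGC-1 acts on oxidative phosphorylation genes. It was at 53.4, 43.1 and 38.2 FPKM in sham 1 to 3 and at 21.4, 37.8 and 33.3 in VO 1 to 3. Every VO library lay under every sham library, but VO 2 and sham 3 were only just apart, while VO 1 and sham 1 formed the ends. Of the members, 2 had groups that did not overlap, as did 21.2% of all tested genes, and with VO lower it was Esrra alone, as in 12.9% of genes. Each value of Esrra rested on 987 to 2110 fragments. The means were 44.9 ± 7.77 and 30.8 ± 8.45 FPKM (SD, n = 3 each). The VO level was 0.675 of the sham level (95% interval 0.462 to 0.986), a log2 fold change of -0.57 ± 0.23 (SE), with an unadjusted p = 0.0439 and an adjusted p = 0.414 in limma. By its p-value Esrra ranked 1334th of the 12627 genes.

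The size of the Esrra difference rested on the libraries that stood apart. Without VO 1 its log2 fold change was -0.33 (limma, adjusted p = 0.697), without sham 1 -0.44 (adjusted p = 0.694), and without both -0.20 (adjusted p = 0.718). Without VO 3, the library with the fat markers, it was -0.64 (limma, unadjusted p = 0.0544, adjusted p = 0.416) and no longer called before adjustment. The call was also lost without sham 2, which did not stand apart (-0.59, limma, unadjusted p = 0.0801, adjusted p = 0.545). It was kept without sham 3 (-0.68, limma, unadjusted p = 0.0423, adjusted p = 0.538) and without VO 2 (-0.74, unadjusted p = 0.0204, adjusted p = 0.276). Over all settings the adjusted p of Esrra ranged from 0.276 to 0.718. At 2539 bases Esrra fell in the class of genes from 2000 to 3000 bases, whose median centred log2 level was 0.14 in sham 1 and -0.13 in VO 1. When a trend with gene length and level was removed from each library, the log2 fold change was -0.40 (adjusted p = 0.437).

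Esrra was also set beside the cardiomyocyte markers, a measure chosen after its values were seen. Per 1000 FPKM of the 9 atrial markers, Esrra was at 2.65, 2.99 and 2.72 in sham and 3.22, 2.81 and 3.35 in VO. On this scale the groups overlapped, and the VO libraries were not lower. Against the mean log2 level of the markers, Esrra differed by -0.02 between groups, and the other 9 members were higher in VO by 0.31 (Tfb2m) to 0.64 (Gabpa). All 9 markers were lower in VO, so this measure moves up for any gene that held its level. What part the lean with gene length has in this measure was not tested.

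**Figure D2:**
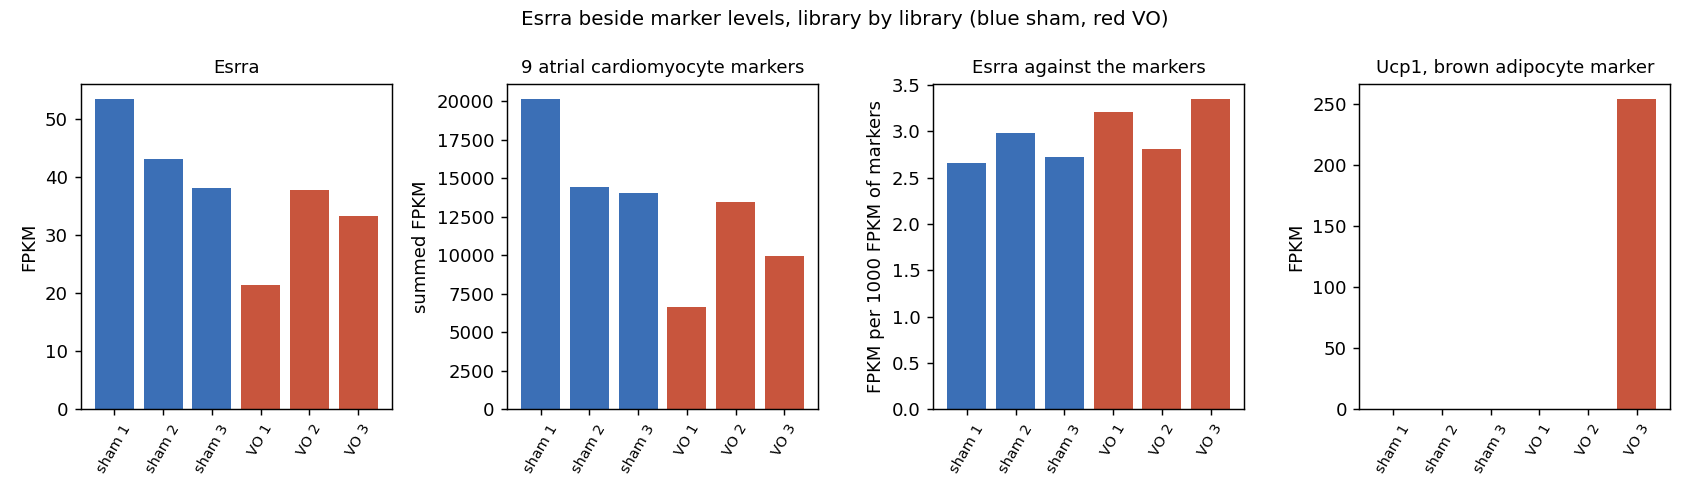
Bars from 0 for each library (blue sham, red VO) of Esrra in FPKM, the summed FPKM of 9 atrial cardiomyocyte markers, Esrra per 1000 FPKM of those markers, and Ucp1 in FPKM. In the first 2 panels VO 1 is the lowest (21.4 and 6664) and sham 1 the highest (53.4 and 20124), in the next the groups overlap, and Ucp1 is above 0 in VO 3 alone.

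Esrrg (ENSMUSG00000026610, chromosome 1, 187608791 to 188214885) encodes ERRγ, the receptor known for the switch to oxidative metabolism in the heart after birth. It was at 5.87, 6.80 and 6.99 FPKM in sham and 6.06, 7.55 and 7.18 in VO. Replicate 1 was the lowest in both groups, and the groups overlapped. The log2 fold change of Esrrg was 0.08, between -0.22 and 0.38 (limma, adjusted p = 0.783). The ratio of Esrrg to Esrra was 0.110, 0.158 and 0.183 in sham and 0.283, 0.1998 and 0.216 in VO. The ratio was thus higher in every VO library than in any sham library, by 0.65 on the log2 scale (exact permutation test, two-sided, p = 0.1, the smallest that 3 against 3 can give, 0.5 adjusted over the 5 pairs). As with Esrra itself, the extremes were sham 1 and VO 1. With single libraries left out the log2 difference of the ratio ran from 0.44 to 0.81. Esrrg has 6208 bases and Esrra 2539, so the ratio sets a long gene over a shorter one. Genes over 6000 bases had a median centred log2 level of -0.11 in sham 1 and 0.07 in VO 1, opposite to the class of Esrra. The part of this length lean in the ratio was not tested.

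The nuclear respiratory factors differed little. Nrf1 (ENSMUSG00000058440, chromosome 6, 30047988 to 30153458) encodes nuclear respiratory factor 1, not the stress factor of the same short name that Nfe2l1 encodes. It was the lowest member, at 2.11, 2.33 and 2.03 FPKM in sham and 2.02, 2.14 and 1.88 in VO. The groups overlapped, and the log2 fold change was -0.10, between -0.44 and 0.25 (limma, adjusted p = 0.761), or 0.04 with TPM. Gabpa (ENSMUSG00000008976, chromosome 16, 84834925 to 84863779) encodes the DNA-binding subunit of GABP. It was at 17.8, 17.0 and 17.4 FPKM in sham and 19.8, 18.0 and 18.1 in VO. Every VO library was above every sham library, a pattern with VO higher that 8.25% of all genes showed, and VO 1 was the highest. The means were 17.4 ± 0.427 and 18.6 ± 1.02 FPKM (SD, n = 3 each), and in proportion to the mean the sham libraries varied less for Gabpa than for any other member. The log2 fold change of 0.09 had an interval of -0.13 to 0.32 (limma, adjusted p = 0.641), and it was 0.05 without VO 1. Gabpa overlaps Atp5j, a gene of ATP synthase on the opposite strand, by 701 bases, and Atp5j averaged 98.9 FPKM. The strand setting of the counting is not given in the sources used here, and without strand the reads of both genes cannot be told apart where they overlap. Gabpa over Nrf1 ranged from 7.29 to 9.82 and differed by 0.20 on the log2 scale (exact permutation test, two-sided, p = 0.3, 0.667 adjusted).

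Of the genes for mitochondrial transcription and replication, none was called. Tfam (ENSMUSG00000003923, chromosome 10, 71225464 to 71238280) encodes the protein that packs mitochondrial DNA and opens its promoters. It was at 11.1, 9.69 and 11.4 FPKM in sham and 8.06, 9.38 and 11.8 in VO. VO 1 and VO 2 were under all sham libraries, but VO 3 was the highest of the 6. The log2 fold change was -0.15, between -0.52 and 0.22 (limma, adjusted p = 0.655). It was -0.29 without VO 3 (adjusted p = 0.416), -0.03 without VO 1 (adjusted p = 0.972) and -0.01 with TPM.

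Tfb2m (ENSMUSG00000026492, chromosome 1, 179528055 to 179546267), which encodes the factor that lets the polymerase melt the mitochondrial promoter, had a similar arrangement. It was at 18.3, 15.4 and 15.99 FPKM in sham and 12.6, 13.5 and 16.2 in VO. VO 1 and VO 2 lay under all sham libraries, and VO 3 lay among them. The means were 16.6 ± 1.54 and 14.1 ± 1.87 FPKM (SD, n = 3 each), a log2 fold change of -0.24 with an interval of -0.54 to 0.07 (limma, adjusted p = 0.461). It was -0.16 without VO 1 and -0.10 with TPM. Without VO 3 the log2 fold change of Tfb2m was -0.34, the only member then called before adjustment (limma, unadjusted p = 0.0386, adjusted p = 0.416), where 11.7% of genes were called and 7.74% were called lower. Tfb2m over Tfam was 1.38 to 1.66 in the 6 libraries, a difference of -0.08 on the log2 scale (exact permutation test, two-sided, p = 0.4, 0.667 adjusted).

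Polrmt (ENSMUSG00000020329, chromosome 10, 79736123 to 79746581) encodes the mitochondrial RNA polymerase, which also makes primers for replication. It was at 3.61, 5.72 and 4.94 FPKM in sham and 4.06, 3.93 and 4.98 in VO. Sham held both the lowest and the highest library. The log2 fold change was -0.12, between -0.57 and 0.33 (limma, adjusted p = 0.777), and 0.02 both with TPM and without sham 2. It was -0.30 without sham 1 (limma, adjusted p = 0.688) and -0.26 without both sham 1 and VO 1. Polg (ENSMUSG00000039176, chromosome 7, 79446231 to 79466362), which encodes the catalytic subunit of the mitochondrial DNA polymerase, was at 4.66, 4.97 and 4.98 FPKM in sham and 4.36, 4.97 and 4.55 in VO. The groups overlapped, and the log2 fold change was -0.07, between -0.32 and 0.17 (limma, adjusted p = 0.746), or 0.06 with TPM. Polrmt over Polg ranged from 0.774 to 1.15 and differed by -0.04 on the log2 scale (exact permutation test, two-sided, p = 0.8, 1 adjusted).

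**Figure D3:**
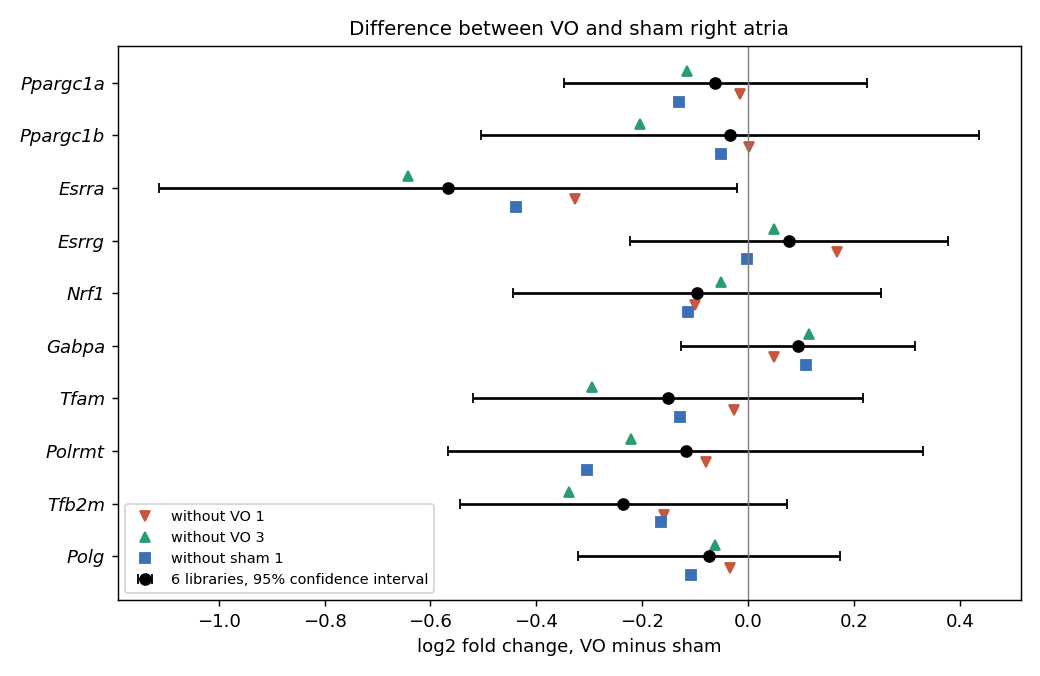
Log2 fold change (VO minus sham) of each member with its 95% interval from limma, (circles and bars), with the values without VO 1, VO 3 or sham 1 as triangles and squares. Only the interval of Esrra (-1.11 to -0.02) leaves out 0.

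With any 1 library left out, 6 to 9 members were below 0 and the median of the members ran from -0.16 to -0.03. VO 1 was the lowest of the 6 libraries in 5 members, and VO 3 the highest VO library in 5. Without VO 1 the median of the members was -0.03, 7 were below 0, and limma called 0 members before adjustment, against 7.53% of all genes (5.09% lower in VO). Without sham 1 the median was -0.12, 9 were below 0, and again 0 were called, against 6.9% of all genes (4.74% lower). Without VO 3 the median was -0.16 and 8 were below 0, with Tfb2m alone called.

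The order of the levels per length, over the 6 libraries, ran from Esrra (37.9 FPKM, above 91.6% of tested genes) through Ppargc1a, Gabpa, Tfb2m, Tfam, Esrrg, Polg, Polrmt and Ppargc1b to Nrf1 (2.08 FPKM, above 17.0%). Neighbours whose ranges over the libraries did not overlap were Ppargc1a over Gabpa, Tfb2m over Tfam, Tfam over Esrrg, Esrrg over Polg, and Ppargc1b over Nrf1. The ranges of Esrra and Ppargc1a, of Gabpa and Tfb2m, of Polg and Polrmt, and of Polrmt and Ppargc1b overlapped.

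The genes most like Esrra in their centred log2 levels over the 6 libraries were Eif3g, a translation initiation subunit (root-mean-square distance 0.039), Tnni3, cardiac troponin I (0.048), Fkbp4, a co-chaperone (0.051), Ndufaf5, an assembly factor of complex I (0.052), and Cby1 (0.057). Tnni3 was at 1736, 1325 and 1275 FPKM in sham and 719, 1235 and 1140 in VO. Those most like Gabpa were Brox (0.025), Ireb2 (0.028), Tmtc3 (0.029), Snx6 (0.030) and Bcl10 (0.030). Such likeness follows the same 6 libraries, including the ends at sham 1 and VO 1 for Esrra and the highest value in VO 1 for Gabpa.

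The wider pathway was read from lists chosen with earlier results of these data known. In each list 0 genes passed the adjusted p in limma, and the counts before adjustment follow. Of 17 genes for replication and packing of mitochondrial DNA, 15 were tested and 10 were below 0, with a median log2 fold change of -0.09 and 0 genes with an unadjusted p-value under 0.05. The smallest p-values there were those of Twnk, the replicative helicase (-0.31, limma, adjusted p = 0.432), and Atad3a (-0.33, adjusted p = 0.454). Without VO 1 they read -0.18 and -0.16, and without VO 3 they read -0.41 and -0.45. Without VO 3 this list had 3 genes called before adjustment, beside 11.7% of all genes in that fit, and with any other single library left out it had 0.

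For transcription and RNA processing in mitochondria, 21 of 24 genes were tested, 16 were below 0 and the median was -0.13. Before adjustment 3 were called, all lower in VO, beside 12% of all tested genes (8.08% lower), and 0 were called with TPM. Tfb1m, which methylates mitochondrial ribosomal RNA and is the sister gene of Tfb2m, was at 2.03, 1.98 and 1.77 FPKM in sham and 1.19, 1.34 and 1.28 in VO. Its groups were well apart, with a log2 fold change of -0.56 (limma, adjusted p = 0.404) that was -0.52 without VO 1 and -0.57 without VO 3. The other two were Tbrg4 (-0.36, adjusted p = 0.404) and Fastk (-0.36, adjusted p = 0.414), both of the FASTK family of mitochondrial RNA-binding proteins. Without VO 1 they read -0.28 and -0.22. The median of this list turned to 0.02 without VO 1 and to 0.01 with TPM.

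Of the partners and upstream regulators, all 43 were tested, 23 were below 0 and the median was -0.07. Before adjustment 4 were called, all lower, beside the 12% of all genes called and 8.08% called lower. Perm1, a muscle regulator that PGC-1 and ERR induce, was at 38.7, 40.8 and 38.9 FPKM in sham and 21.2, 31.7 and 33.9 in VO. The sham libraries lay close together and VO 1 was far below the rest. The difference was -0.48 on the log2 scale (limma, adjusted p = 0.410), and -0.27 without VO 1. Prkag1, a subunit of the energy sensor AMPK, read -0.71 (adjusted p = 0.410), and -0.39 without VO 1. Rnf34, a ubiquitin ligase, read -0.39 (adjusted p = 0.404) and Ppard, a fatty acid sensing receptor, -0.31 (adjusted p = 0.410). Pparg, the receptor of fat cells, was at 1.28 to 1.71 FPKM in sham and at 2.39, 2.16 and 14.3 in VO, with the high value in VO 3, where the fat markers were.

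Nuclear genes commonly given as targets of these regulators formed the next list. Of 29, 28 were tested, 23 were below 0 and the median was -0.31. It was -0.061 with quantile normalization and -0.11 with the length and level trend removed. Without VO 1 the median was -0.11, and without both sham 1 and VO 1 it was -0.0045. Without VO 3 it was -0.43, and with TPM it was -0.17, beside 0.13 over all genes. Before adjustment 2 were called without sham 1 (6.9% of all genes in that fit) or with the replicate block, and 6 with voom. Without VO 3 the number called was 8, beside 11.7% of all genes in that fit. In the main fit 5 were called, 3 lower and 2 higher, beside 8.08% and 3.89% of all genes. Those lower were Cox6a2, the muscle form of a cytochrome oxidase subunit (-1.02, limma, adjusted p = 0.404), Slc25a4, the ATP/ADP carrier of heart mitochondria (-0.98, adjusted p = 0.404), and Cox5b (-0.80, adjusted p = 0.414). Without VO 1 they read -0.74, -0.69 and -0.56. Those higher are known to respond to fatty acids. Ucp3, an uncoupling protein relative, was at 4.02, 1.499 and 1.82 FPKM in sham and 8.47, 10.1 and 7.16 in VO. Its groups were far apart, by 1.88 on the log2 scale (limma, adjusted p = 0.283), and by 1.88 without VO 1 and 2.003 without VO 3. Pdk4, the kinase that shuts pyruvate out of the citric acid cycle, read 0.79 (adjusted p = 0.404). Cpt1b, the carnitine transferase of heart muscle, was under the filter, at 0.162 to 0.515 FPKM. An overlapping protein-coding gene model covers 100% of its span, and how such shared reads were counted is not given in the sources used here.

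Of the 13 messenger RNAs of the mitochondrial genome, 9 were below 0 and the median was -0.08. Before adjustment 1 was called, beside 12% of all tested genes: mt-Co3, a subunit of cytochrome oxidase. It was at 871, 1476 and 1519 FPKM in sham and 291, 269 and 381 in VO. All VO libraries lay under all sham libraries, as in 12.9% of all tested genes. The difference was -2.01 on the log2 scale (limma, adjusted p = 0.157), and -1.96 without VO 1. Another subunit gene of the same complex, mt-Co1, was at 35913 to 42543 FPKM in sham and 35886 to 40728 in VO. Its difference was -0.07 (limma, adjusted p = 0.937). Others were less even: mt-Nd3 was at 1112, 499 and 154 FPKM in sham and 194, 140 and 152 in VO. Its groups overlapped, with a difference of -1.45 (limma, adjusted p = 0.414). The highest of the list, mt-Nd4l, read 0.57 (adjusted p = 0.486). Like mt-Co3, the genes mt-Co2, mt-Atp6 and mt-Atp8 were far under mt-Co1, at 555, 433 and 7.25 FPKM in sham 1. Their differences were 0.03, -0.32 and -0.34, and their groups overlapped. How reads that match more than 1 place were counted is not given in the sources used here. The part of such reads in the mt-Co3 difference was not tested.

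**Figure D4:**
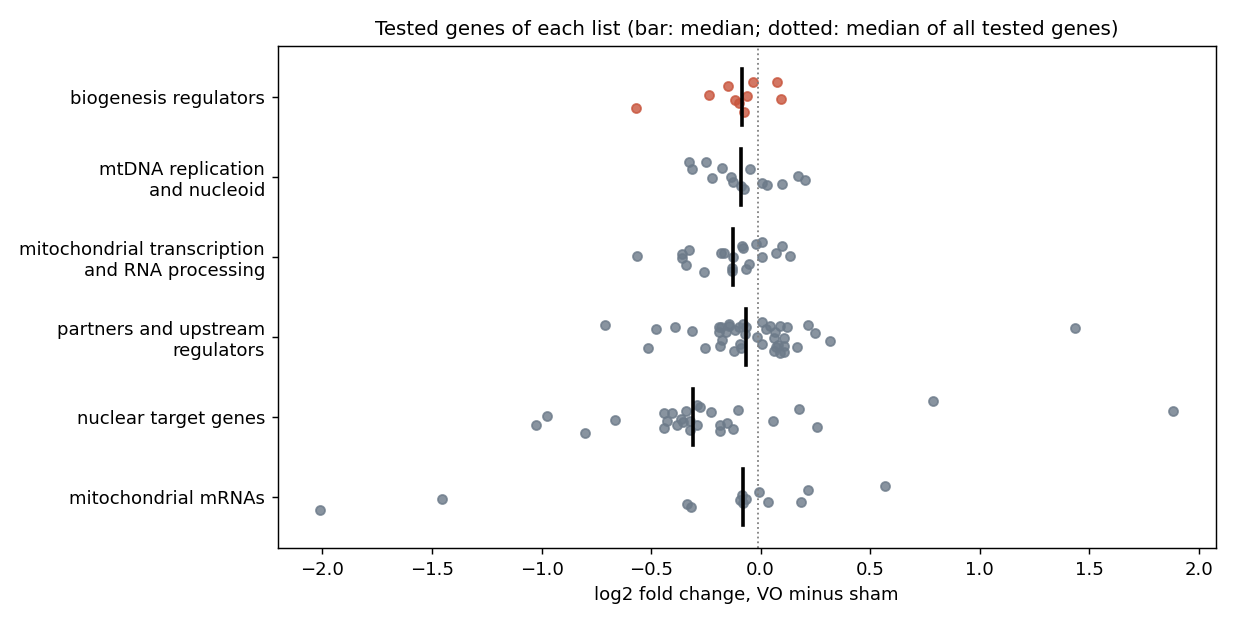
Log2 fold change (VO minus sham) of every tested gene of the members and of the 5 pathway lists, 1 point per gene, with each list's median as a bar and that of all tested genes as a dotted line. Medians run from -0.31 for the nuclear targets to -0.07 for the partners and upstream regulators, beside -0.01 over all 12627 tested genes.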

How the data were processed

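RNA of 3 sham and 3 VO libraries (total RNA, NEBNext Ultra kit, paired-end NovaSeq reads of 150 bases) was quantified by the authors, who deposited FPKM per gene. The submitters' processing notes name HISAT2 2.0.5, featureCounts 1.5.0-p3 and the GRCm38 (mm10) build. The study tested counts, whereas the deposited values are FPKM, so the main test was made on a log scale. FPKM multiplied by gene length gave whole fragments per library (tolerance 0.01) and hence the depth. All 6 libraries had the same median of ratios already. The last line of the table was incomplete and left out (1 line).

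Log2(FPKM + 0.1) was fitted with limma 3.58.1 (R 4.3.3, eBayes with trend, two-sided) over all 12627 genes with a mean of at least 1 FPKM, with Benjamini-Hochberg adjustment. Fold changes are on this scale and understate changes of low genes. The test was also run on simulated data, with changes larger than that of any member and no libraries that stood apart. That run does not show whether changes of the members' size would be found. Ratios of member pairs used exact permutation tests. Python 3.11.15 and matplotlib 3.10.9 made the remaining values and figures.

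All 10 members are named. In each list, genes with an unadjusted p-value under 0.05 are named, at most 4 per direction, or else the 2 with the smallest p. Beside them stand Esrrb, Pparg, Cpt1b, mt-Co1, mt-Co2, mt-Atp6, mt-Atp8, mt-Nd3 and mt-Nd4l, chosen after their values were seen. Also named are the 5 genes nearest to the member with the smallest p in each direction. Members and lists were chosen with earlier results of these data known. Alternatives changed pseudocount, filter, scaling, variance model, replicate block and libraries.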

Additional observations from a re-analysis of the deposited data

How the results depend on the processing

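Of the settings tried, removal of the length and level trend, and leaving out sham 1 and VO 1 together, were chosen after seeing the data. The number of genes with an adjusted p-value under 0.05 (1 in limma) was 2 with a pseudocount of 1, 3 with a filter of 0.1 FPKM or without the variance trend, and 0 with quantile normalization, robust variance, the replicate block, the trend removed, or any library left out (0 to 0). Calls before adjustment (1511) were 874 to 2001 with libraries left out and 965 without sham 1 and VO 1. Called members (1) were 0 with TPM, quantile normalization, fragment totals, no variance trend and the trend removed, and 0 to 1 with libraries left out. In no setting did a member pass the adjusted p.

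TPM moved the median of all genes to 0.13 and fragment totals moved it to 0.08, and several log2 values changed sign against 0. Medians with TPM and totals were 0.050 and 0.0050 for the members, 0.049 and 0.0037 for replication, and 0.069 and 0.024 for partners. They were 0.060 and 0.014 for mitochondrial messenger RNAs, and 0.011 with TPM for transcription. The medians of the nuclear targets stayed below 0, at -0.17 and -0.21. Single members with TPM and totals were Ppargc1a 0.077 and 0.032 (0.027 with quantile normalization), Ppargc1b 0.10 and 0.058, and Polg 0.063 and 0.018. With TPM, Nrf1 was 0.037 and Polrmt 0.019. With the trend removed the mitochondrial messenger RNAs stood at 0.30. Without sham 1 and VO 1 they stood at 0.018, and the nuclear targets at -0.0045.

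With single libraries left out, medians ran from -0.22 to 0.017 for transcription, -0.080 to 0.0069 for partners, -0.43 to -0.11 for the nuclear targets and -0.18 to -0.0017 for mitochondrial messenger RNAs. Members ran from -0.13 to 0.029 (Ppargc1a), -0.20 to 0.10 (Ppargc1b), -0.0025 to 0.17 (Esrrg) and -0.30 to 0.020 (Polrmt). The ratio Ppargc1a over Ppargc1b ran from -0.16 to 0.094 and Polrmt over Polg from -0.20 to 0.087. The cause of these shifts was not tested.

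The labels number the replicates 1 to 3 in both groups, but same-numbered libraries did not deviate together (correlations of -0.11, 0.01 and -0.03), so the numbers were not taken as pairs. The fit with a replicate block called 932 genes and 0 members before adjustment. With 3 libraries a group, the interval of Esrra spans 0.462 to 0.986 of the sham level, and each interval in the report bounds what these libraries could show for a member.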
